A study of Drosophila melanogaster with 4 samples.

Results

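The Rab family of small GTPases was compared between the testis and the seminal vesicle of adult *Drosophila melanogaster* males. Its members were taken from the genes whose FlyBase symbol is Rab followed by a number and optional letters, or RabX followed by a number. Of 32 such genes considered, 31 were measured, out of 17409 genes in all, and Rab1, whose identifier was not matched to a row, was not analysed here and is left out of every sum, share and rank. All 31 are annotated as protein-coding. Both tissues came from wild-type males of the Oregon-R-modENCODE strain, 4 to 5 days old, reared under constant light and parted from females a day after they emerged. One group was testes, and the other was seminal vesicles together with the terminal epithelium that joins them to the testis base. The labels name no transgene, mutation or drug for either group. Each tissue gave 2 libraries of poly(A) RNA, from dissections on 2 consecutive days, and the number of males behind a library is not given in the labels. The comparison addresses which genes separate the organ that makes sperm from the organ that stores them.

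Rab proteins are molecular switches that give membranes an identity. In the GTP-bound state a Rab sits on its membrane through a prenyl anchor and recruits effectors, such as tethers, motors and coats, that move, dock or fuse vesicles. Exchange factors load GTP, GTPase-activating proteins end the active state, and GDI returns the GDP-bound Rab to the cytosol. Different Rabs mark the Golgi, the early, recycling and late endosomes, and secretory vesicles. In the fly testis, membrane traffic serves male meiotic cytokinesis and the growth of the spermatid, while the seminal vesicle is a muscle-clad secretory epithelium around stored sperm.

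Gene counts ran from 11120405 to 15528462 per library. Levels are given as CPM, counts scaled to a common library size, after TMM scaling, in the order testis replicates 1 and 2, then seminal vesicle replicates 1 and 2, and 3 counts corresponded to 0.175 to 0.321 CPM. The marker genes followed the labels. All 10 germline markers were higher in testis, with a summed level of 8002 and 8800 CPM against 509.6 and 1015 CPM, and none was at 0 in both seminal vesicle libraries. All 5 muscle markers were higher in seminal vesicle, at 58.3 and 53.3 against 3585 and 2600 CPM, as were 5 of 6 epithelial markers, at 166 and 144 against 1331 and 1478 CPM, the exception being grh. Markers of accessory gland and ejaculatory duct summed to 19.0 and 16.8 CPM in testis and to 394 and 184 CPM in seminal vesicle, with SP at 0 in testis. Cyst cell markers summed to 63.9 and 69.9 against 82.8 and 82.1 CPM, but of the 5 genes tj, zfh1 and Wnt4 were higher in testis, the gene so was higher in seminal vesicle and eya was not called. Neuronal markers summed to 27.7 and 29.2 against 41.6 and 49.5 CPM, with elav and nSyb higher in seminal vesicle, brp 5.3-fold higher in testis, cpx not called and Syt1 not tested. Blood and fat body markers summed to 4.95 and 6.94 against 13.0 and 7.82 CPM, with Fbp1 at 0 throughout. The part of these cell types in the differences below was not tested. In such whole-tissue samples, fewer cells of a type and less RNA per cell cannot be told apart.

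As a family, the Rab genes took a larger share of the transcriptome in seminal vesicle. Their summed level was 813 and 745 CPM in testis and 2247 and 2438 CPM in seminal vesicle, or 779 ± 48.1 against 2342 ± 135 CPM (SD, n = 2 per tissue), a 3.01-fold difference. Both seminal vesicle libraries lay above both testis libraries. As a percentage of all gene counts, without TMM scaling, the family held 0.0957% and 0.0822% against 0.206% and 0.205%, a 2.31-fold difference. Per count of the spike-in RNA, it stood at 2.94 and 2.11 against 3.43 and 3.77, a 1.43-fold difference, although a different spike-in pool had been added in each tissue. In the testis libraries 27 and 27 of the 31 genes reached 1 CPM, against 22 and 21 in the seminal vesicle libraries. The share of all genes that reached 1 CPM is not given here, so these counts are not read as a trait of the family.

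**Figure D1:**
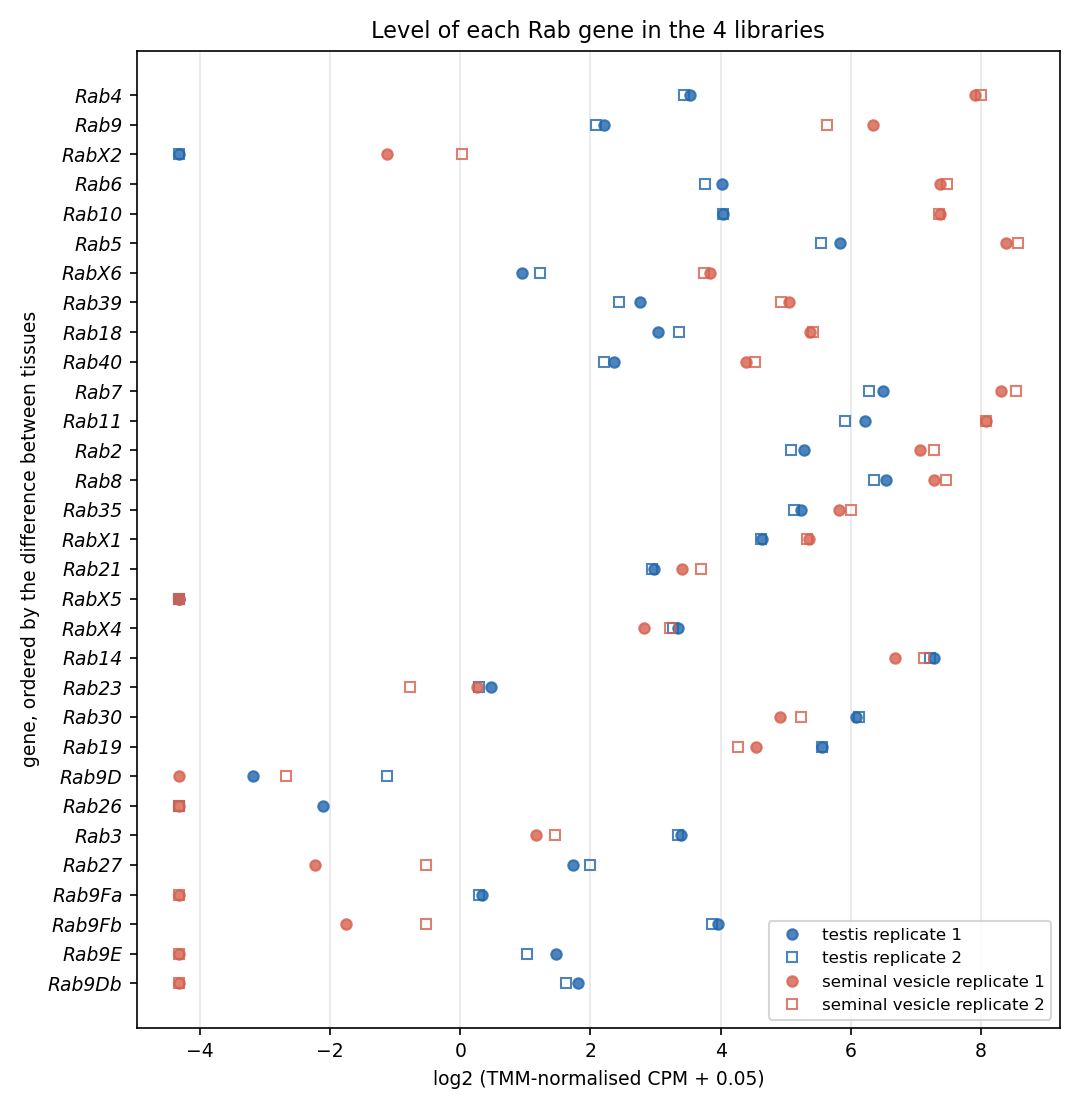
Level of each of the 31 Rab genes in every library, as log2 of TMM-normalised CPM plus 0.05, with genes ordered from those higher in testis at the bottom to those higher in seminal vesicle at the top. Blue marks testis and red seminal vesicle, circles replicate 1 and open squares replicate 2, and Rab9Db, Rab9E and Rab9Fa lie at 0 counts in both seminal vesicle libraries.

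Of the 31 genes, 27 passed the filter on low counts and were tested together with all other genes, 11737 in all, by edgeR's quasi-likelihood test with Benjamini-Hochberg adjustment. In seminal vesicle 16 Rab genes were higher, in testis 8 were, and Rab14, Rab23 and RabX4 did not pass an adjusted p of 0.05. The 24 called genes were 88.9% of those tested, near the 86.6% of all genes that were called either way. By direction, 59.3% of the tested Rab genes were higher in seminal vesicle beside 42.1% of all genes, and 29.6% were higher in testis beside 44.5% of all genes. By over 2-fold, tested with edgeR's glmTreat, 12 Rab genes were higher in seminal vesicle, or 44.4% beside 33.5% of all genes, and 6 were higher in testis, or 22.2% beside 36.7%. Of the 8 genes higher in testis, Rab27, Rab9Db, Rab9E, Rab9Fa and Rab9Fb passed the filter only through their testis libraries, as did the uncalled Rab23, so the testis share and counts over these genes support nothing. The 16 genes higher in seminal vesicle and Rab3, Rab19 and Rab30 passed it in both tissues. In every tested Rab gene, called or not, the libraries of the tissues did not overlap, so that separation distinguishes none of them. The share of all genes without overlap is not given here. The median log2 fold change, seminal vesicle minus testis, was 0.74 over the 27 tested Rab genes and -0.11 over all genes tested.

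These directions depend on how libraries are scaled, because the median of all genes moves with the scaling. A different spike-in pool was added in each tissue, so with spike-in factors pool and tissue cannot be told apart. With library size alone that median shifted by -0.38 on the log2 scale, and with spike-in factors by -1.06. The Rab split of 16 genes higher in seminal vesicle and 8 in testis became 12 and 10 with library size alone and 12 and 11 with spike-in factors, where the split over all genes went from 4944 and 5223 to 3272 and 6372. The median log2 fold change of the tested Rab genes was 0.35 with library size alone and -0.33 with spike-in factors, beside -0.49 and -1.17 over all genes. With each of TMM, library size alone and spike-in factors, 16 of the 27 tested Rab genes lay above the median of all genes. Spike-in factors moved the fold of 21 of the 24 called Rab genes by over 1.5 times, lowering those toward seminal vesicle and raising those toward testis. Among the abundant genes, Rab7 went from 4.08-fold to 1.93-fold (adjusted p = 0.0426), Rab11 from 4.02-fold to 1.9-fold (0.0409) and Rab2 from 3.98-fold to 1.89-fold (0.0191), while Rab4 stood at 10.6-fold.

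**Figure D2:**
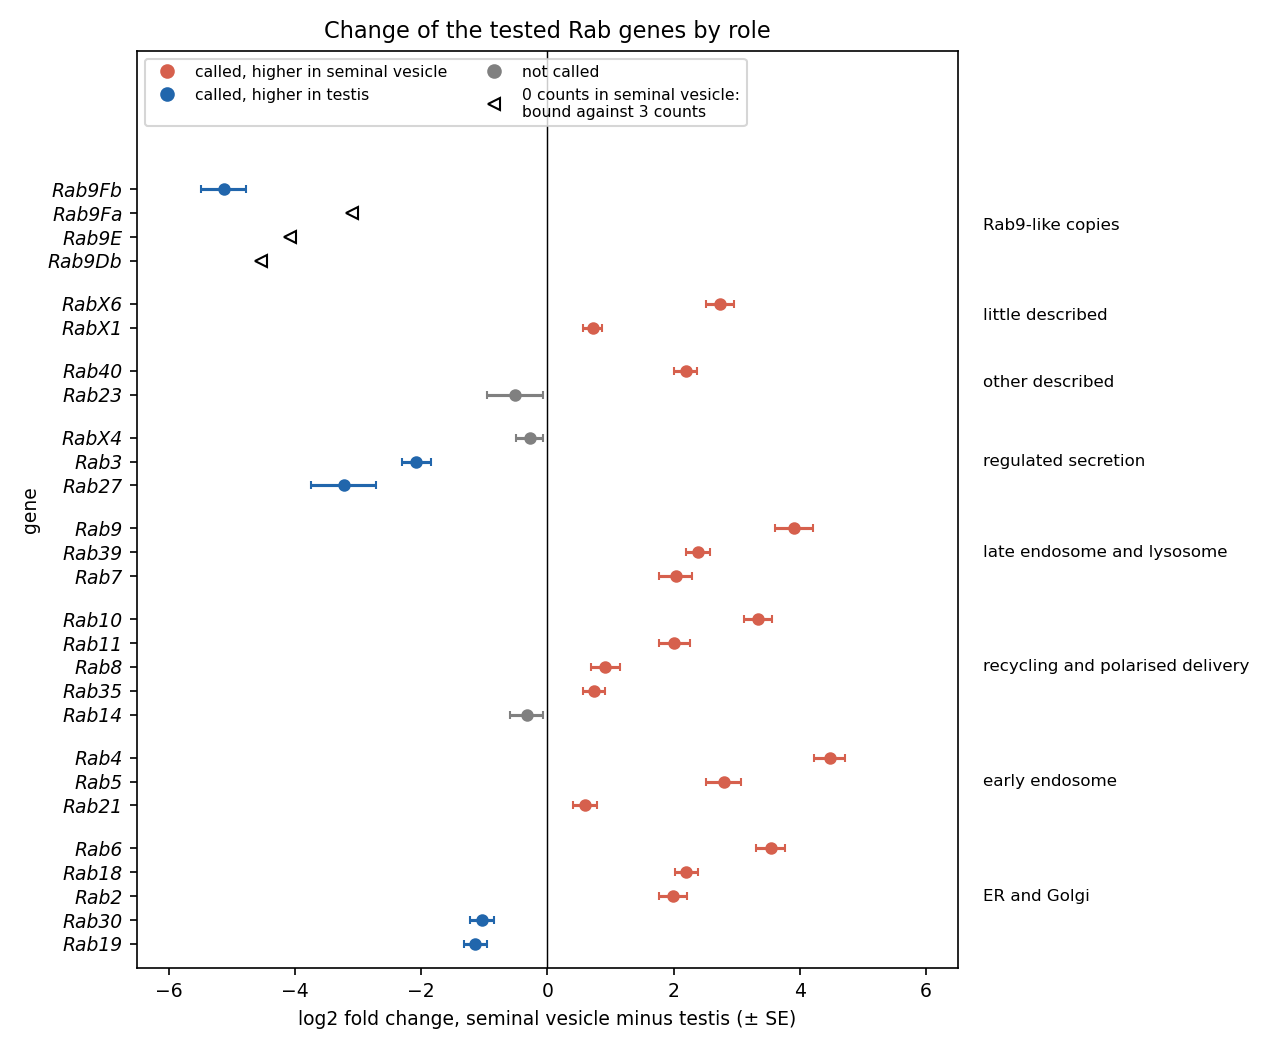
Log2 fold change of the 27 tested Rab genes, seminal vesicle minus testis, with bars for the standard error, grouped by cellular role. Red marks genes called higher in seminal vesicle, blue genes called higher in testis and grey those not called, and open triangles give the lower bound for 3 genes with 0 seminal vesicle counts. All tested early and late endosomal Rabs lie to the right of 0. The tested Rab9-like genes, labelled Rab9-like copies, lie to the left, from a bound of 8.53-fold for Rab9Fa to 35-fold for Rab9Fb. They passed the filter only through their testis libraries, which fixed their side.

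Of the 5 tested Rabs of the endoplasmic reticulum and Golgi, 3 were higher in seminal vesicle and 2 in testis. These were 60% and 40%, beside 42.1% and 44.5% of all genes. The split was the same with library size alone and with spike-in factors. Rab2, which acts in transport between the endoplasmic reticulum and the Golgi, stood at 38.9 and 33.9 CPM in testis and at 134 and 155 CPM in seminal vesicle. Rab6, which acts within the Golgi and from it back to the endoplasmic reticulum, stood at 16.1 and 13.5 against 166 and 179 CPM. Rab18, known in mammals from the endoplasmic reticulum and lipid droplets, stood at 8.14 and 10.2 against 41.3 and 42.9 CPM. In these 3 genes each seminal vesicle library lay above each testis library, by 3.98-fold for Rab2 (log2 fold change 1.99 ± 0.22 SE, adjusted p = 3.10e-04), 11.6-fold for Rab6 (3.54 ± 0.23, adjusted p = 5.42e-05) and 4.59-fold for Rab18 (2.20 ± 0.18, adjusted p = 1.08e-04). Rab19 and Rab30, which like Rab2 and Rab6 are bound by fly golgins, the coiled-coil tethers of the Golgi, went the other way. Rab19 stood at 46.9 and 46.9 CPM in testis and at 23.3 and 19.3 CPM in seminal vesicle. Rab30 stood at 67.6 and 69.8 against 30.0 and 37.5 CPM. Both were higher in each testis library than in either seminal vesicle library, Rab19 by 2.2-fold (-1.14 ± 0.18, adjusted p = 0.00128) and Rab30 by 2.04-fold (-1.03 ± 0.19, adjusted p = 0.0029), and neither passed the test for a change over 2-fold.

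All 3 tested Rabs of the early endosome were higher in seminal vesicle, as were 42.1% of all genes. With library size alone 2 were, and with spike-in factors 2. Rab5, which drives early endosome fusion, stood at 57.1 and 46.4 CPM in testis and at 335 and 379 CPM in seminal vesicle, a 6.9-fold difference (log2 fold change 2.79 ± 0.27, adjusted p = 1.87e-04). Rab4, which acts in rapid recycling from early endosomes to the cell surface, had the largest called change toward seminal vesicle of any Rab gene. It stood at 11.5 and 10.8 CPM in testis and at 239.6 and 255 CPM in seminal vesicle, a 22.2-fold difference (4.47 ± 0.25, adjusted p = 3.69e-05). The libraries of a tissue differed by 1.07 times for Rab4 in testis and again in seminal vesicle. Rab21, which in mammals carries integrins through early endosomes, stood at 7.84 and 7.64 against 10.5 and 12.9 CPM. Its groups did not overlap, but the difference was 1.5-fold (0.59 ± 0.19, adjusted p = 0.0271), changed to -0.47 with spike-in factors (adjusted p = 0.211), and was no longer called without testis replicate 1 (adjusted p = 0.138), testis replicate 2 (0.146) or seminal vesicle replicate 2 (0.0655). RabX5, placed with this group, had 0 counts in all libraries.

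Of the 5 recycling Rabs, 4 were higher in seminal vesicle by unequal amounts, beside 42.1% of all genes, and Rab14 was not called. With library size alone, and again with spike-in factors, 2 were higher in seminal vesicle and 1 in testis. Rab10, which directs secretion to the basal side of fly follicle cells, stood at 16.4 and 16.3 CPM in testis and at 166 and 164 CPM in seminal vesicle, a 10.1-fold difference (log2 fold change 3.33 ± 0.22, adjusted p = 5.03e-05). Rab11, the Rab of the recycling endosome, which is required for cytokinesis in fly male meiosis, stood at 74.4 and 60.3 against 271 and 270.5 CPM, a 4.02-fold difference (2.01 ± 0.25, adjusted p = 5.22e-04). For both genes the groups stood well apart. Rab8, which carries post-Golgi vesicles to the plasma membrane, stood at 92.8 and 82.0 against 155 and 176 CPM, 1.9-fold higher in seminal vesicle (0.92 ± 0.23, adjusted p = 0.00926) but at -0.15 with spike-in factors (adjusted p = 0.739). Rab35, which recycles cargo at the plasma membrane, stood at 37.5 and 34.8 against 56.2 and 64.4 CPM, 1.67-fold higher in seminal vesicle (0.74 ± 0.18, adjusted p = 0.00809) but at -0.33 with spike-in factors (adjusted p = 0.368). The groups of Rab8 and Rab35 did not overlap, although neither was called without testis replicate 2 (adjusted p = 0.0513 and 0.0583). Rab14, which acts between the Golgi and endosomes and in phagosome maturation, stood at 156 and 148 CPM in testis and at 102 and 140.0 CPM in seminal vesicle. Both testis libraries lay above both seminal vesicle libraries, yet the change of -0.33 ± 0.26 was within the spread between libraries (adjusted p = 0.265). Without seminal vesicle replicate 2 it was -0.58 and called (adjusted p = 3.68e-04).

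The 3 late endosomal and lysosomal Rabs were all higher in seminal vesicle, as were 42.1% of all genes. All 3 stayed so with library size alone and with spike-in factors. Rab7, which governs fusion of late endosomes with lysosomes, stood at 90.5 and 77.9 CPM in testis and at 316 and 371 CPM in seminal vesicle, a 4.08-fold difference (log2 fold change 2.03 ± 0.26, adjusted p = 5.77e-04). Rab39, linked to lysosomes and autophagy, stood at 6.76 and 5.37 against 33.1 and 30.3 CPM, a 5.24-fold difference (2.39 ± 0.19, adjusted p = 9.14e-05). Rab9, which in mammals acts between late endosomes and the Golgi, stood at 4.58 and 4.2 against 81 and 49.7 CPM, a 14.9-fold difference (3.90 ± 0.30, adjusted p = 1.01e-04). None of the 3 had overlapping groups, which held for every tested Rab gene. The seminal vesicle libraries of Rab9 differed by 1.63 times, the widest spread among the Rabs called higher in that tissue.

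Rabs of regulated secretion were few and low. Of 3 tested, 2 were higher in testis, beside 44.5% of all genes, and RabX4 was not called. With library size alone, and again with spike-in factors, all 3 were higher in testis. Rab3, the Rab of synaptic vesicles, stood at 10.4 and 10.1 CPM in testis and at 2.20 and 2.68 CPM in seminal vesicle, 4.23-fold higher in testis (log2 fold change -2.08 ± 0.23, adjusted p = 2.89e-04). Rab27, which docks secretory granules in mammals, stood at 3.26 and 3.91 against 0.163 and 0.643 CPM, 9.37-fold higher in testis (-3.23 ± 0.52, adjusted p = 0.00162). The groups of Rab3 were well separated. Rab27 passed the filter only through its testis libraries, which fixed its side. It rested on 8 seminal vesicle counts in all, and its change was -2.45 without seminal vesicle replicate 1 and -4.40 without replicate 2. RabX4 stood at 10.1 and 9.57 against 7.02 and 9.32 CPM, a difference that did not pass the test (-0.28 ± 0.21, adjusted p = 0.255), although it did without seminal vesicle replicate 2 (-0.50, adjusted p = 0.0462). In the annotation, 9.25% of its exon bases overlap exons of Kaz on the same strand. Rab26, linked to secretory vesicles in mammals, had 3 counts in testis replicate 1 and 0 in the other libraries, and was not tested.

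Of the remaining Rab genes outside the Rab9-like group, Rab40, RabX6 and RabX1 were higher in seminal vesicle, as were 42.1% of all genes. Rab23 was not called and RabX2 was not tested. With library size alone, and again with spike-in factors, Rab40 and RabX6 stayed called but RabX1 did not. Rab23 was called higher in testis with spike-in factors (-1.57, adjusted p = 0.00557). Rab40, which carries a SOCS box and serves a ubiquitin ligase in vertebrates, stood at 5.07 and 4.55 CPM in testis and at 21 and 23.1 CPM in seminal vesicle, a 4.58-fold difference (log2 fold change 2.19 ± 0.18, adjusted p = 9.96e-05). RabX6 stood at 1.87 and 2.28 against 14.3 and 13.3 CPM, a 6.63-fold difference (2.73 ± 0.22, adjusted p = 9.43e-05). Neither gene had overlapping groups. Of the exon bases of RabX6, 36.2% overlap Vti1a on the other strand, and the counts behaved as strand-specific. RabX1 stood at 24.8 and 24.6 against 41.1 and 40.2 CPM, 1.65-fold higher in seminal vesicle (0.72 ± 0.15, adjusted p = 0.00501) but at -0.35 with spike-in factors (adjusted p = 0.335). It was not called without testis replicate 1 (adjusted p = 0.0528) or replicate 2 (0.0527). Rab23, which acts in planar polarity of the wing, was low in both tissues, at 1.33 and 1.17 against 1.14 and 0.536 CPM (-0.51 ± 0.44, adjusted p = 0.309). RabX2 was the only member with counts in seminal vesicle and none in testis, with 0 and 0 against 5 and 9 counts. It was at least 7.29-fold higher in seminal vesicle against a floor of 3 counts over both testis libraries. It failed the filter on low counts. With no filter its adjusted p was 0.0111, but its counts lay in seminal vesicle alone, which fixed its side, so that call supports nothing.

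The Rab9-like genes are short single-exon genes grouped here by symbols made of Rab9 and added letters. Whether they derive from Rab9 was not examined. Rab9Fb stood at 15.5 and 14.5 CPM in testis and at 0.245 and 0.643 CPM in seminal vesicle, or 505 counts against 9. It was 35-fold higher in testis (log2 fold change -5.13 ± 0.36, adjusted p = 6.02e-05), the largest fitted change toward testis among Rab genes with counts in both tissues. Its change was -4.51 without seminal vesicle replicate 1 and -5.90 without replicate 2, so the size of the change, but not its direction, differed with the library left out. Rab9Db stood at 3.44 and 3.03 CPM in testis, 109 counts, and at 0 in seminal vesicle, which makes it at least 23.3-fold higher in testis against a floor of 3 counts over both libraries (adjusted p = 4.22e-04). Rab9E stood at 2.71 and 1.98 CPM in testis, 79 counts, against 0, at least 16.9-fold higher (adjusted p = 9.13e-04). Rab9Fa stood at 1.21 and 1.17 CPM in testis, 40 counts, against 0, at least 8.53-fold higher (adjusted p = 0.0017). These 4 genes passed the filter only through their testis libraries, which fixed their side, so their calls and the separation of their groups support nothing. Rab9D, the fifth of these genes, had 1 and 7 counts in testis and 0 and 1 in seminal vesicle. Its count ratio was 5.12, with a 95% counting interval of 0.687 to 227, and it was not tested. Reads that aligned to several places, 8.27% to 9.57% of all deposited counts, were given to no gene. Any of these genes that are nearly identical in sequence could thus have lost reads.

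The Rab9-like genes lie together on the X chromosome. In the Release 6 assembly, RabX2 occupies X, 10417429 to 10418219 on the plus strand, Rab9D 10589089 to 10589985 on the plus strand, and Rab9Db 10622355 to 10623225 on the minus strand. Rab9E follows at 10660955 to 10661843, Rab9Fa at 10950160 to 10951030 and Rab9Fb at 10951609 to 10952486, all 3 on the minus strand. These 6 genes span 535.1 kb, and Rab9Fa and Rab9Fb are only 578 bases apart. The exons of the 5 Rab9-like genes are 871 to 897 bases long. Of the 31 Rab genes, 7 have a single merged exon, and the one outside this stretch is Rab6, on 2L. The stretch also holds 50 other genes, of which 39 were tested. Of these, 19 were higher in seminal vesicle, 16 were higher in testis and 4 were not called, with a median log2 fold change of 0.26. The 4 tested Rab9-like genes entered the test only through their testis counts, which fixed their side, so they are not compared with these neighbours.

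The X chromosome carries 13 of the 31 Rab genes, or 41.9%, beside 15.0% of all 17172 genes with a position. On the X, 11 were tested, of which 6 were higher in seminal vesicle and 5 in testis. The 6 were Rab10, Rab18, Rab21, Rab35, Rab39 and Rab40, and the 5 were Rab27 and the 4 tested Rab9-like genes. These 5 all entered the test through testis counts alone. Over all 1819 tested X-linked genes, 918 were higher in seminal vesicle and 679 in testis. Off the X, 16 Rab genes were tested, of which 10 were higher in seminal vesicle and 3, Rab3, Rab19 and Rab30, in testis, beside 3932 and 4492 of the 9751 tested genes off the X.

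The make-up of the family, compared per kb of exon, differed between the tissues. In testis Rab14 led with 84.1 and 79.4 CPM per kb, followed by Rab7 with 53.2 and 45.8, Rab19 with 42.5 and 42.4, Rab8 with 40.1 and 35.4 and Rab11 with 41.0 and 33.2 CPM per kb. Rab8 and Rab11 did not differ beyond the spread of their libraries. In seminal vesicle Rab7 led with 186 and 218 CPM per kb, followed by Rab4 with 182 and 194, Rab11 with 149 and 149, Rab5 with 106 and 120 and Rab6 with 87.5 and 94.3 CPM per kb. The libraries of Rab7 and Rab4 overlapped there. Rab4 was 13th in testis and 2nd in seminal vesicle, while Rab19 was 3rd in testis and 14th in seminal vesicle. Rab7 and Rab11 were among the leading 5 in both tissues.

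As shares of the summed Rab level per kb, which do not depend on library scaling, Rab14 held 18.6% and 19.0% in testis and 4.49% and 5.73% in seminal vesicle. Its share was thus lower although its own CPM did not pass the test. Rab4 held 1.94% and 1.96% against 14.9% and 14.8%, and Rab19 held 9.41% and 10.2% against 1.73% and 1.33%. Rab7 changed less, from 11.8% and 11% to 15.2% and 16.6%. The 5 leading genes of testis together held 57.8% and 56.6% in testis and 39.1% and 40.8% in seminal vesicle. The 5 leading genes of seminal vesicle held 28.7% and 26.1% in testis and 58.2% and 59.0% in seminal vesicle. Rab9Fb, at 3.91% and 3.95%, was the 8th Rab per kb in testis.

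**Figure D3:**
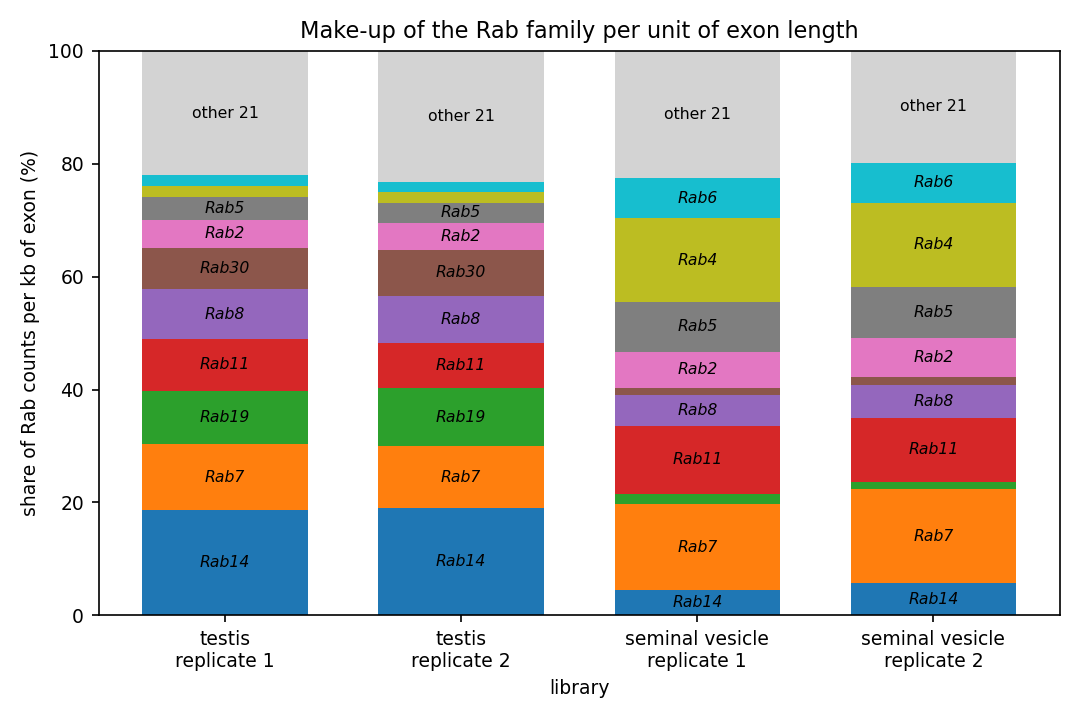
Share of the summed Rab level held by each gene in each library, as a percentage of Rab counts per kb of merged exon. The 10 genes with the highest share in any library are drawn separately and the other 21 together, and Rab14 shrinks from 18.6% and 19.0% in testis to 4.49% and 5.73% in seminal vesicle while Rab4 grows from 1.94% and 1.96% to 14.9% and 14.8%.

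Libraries of one tissue agreed closely for these genes. The median absolute difference between the 2 libraries, in log2 CPM, was 0.13 in testis and 0.19 in seminal vesicle over the 27 tested Rab genes, beside 0.16 and 0.28 over all genes tested. The largest ratios between seminal vesicle libraries among called genes belonged to the low-count Rab27, at 3.94 times, and Rab9Fb, at 2.63 times, both higher in replicate 2.

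Of the 10 germline markers, 8 were also higher in seminal vesicle replicate 2 than in replicate 1. The median level of these markers in seminal vesicle was 1.97% of the testis mean in replicate 1 and 4.12% in replicate 2, ranging from 0.193% to 13.0% and from 0% to 24.4%. The testis-higher Rab genes stood at different depths against this. Rab9Fb was at 1.63% and 4.29% of its testis mean, and Rab27 at 4.56% and 17.9%, within the range of the markers in both libraries. Rab3 was at 21.5% and 26.1%, above the highest marker in both. Rab19, at 49.8% and 41.1%, and Rab30, at 43.7% and 54.6%, were further above it. The part of germline RNA in the seminal vesicle levels of these genes was not tested.

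**Figure D4:**
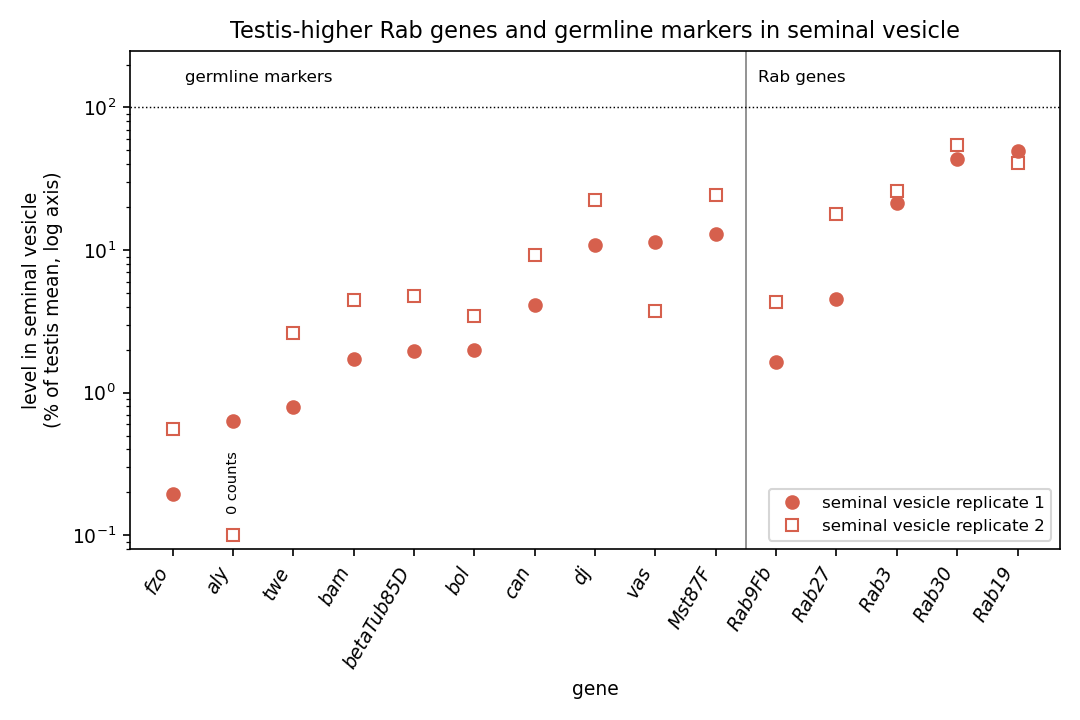
Level in each seminal vesicle library as a percentage of the testis mean, on a log axis, for 10 germline markers and for the 5 testis-higher Rab genes that had seminal vesicle counts. Filled circles are replicate 1 and open squares replicate 2, the dotted line is 100%, and aly, with 0 counts in replicate 2, is drawn at the axis floor. Rab9Fb and Rab27 lie within the range of the markers, while Rab3, Rab30 and Rab19 lie above it.

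Regulators, effectors and tethers of the Rab proteins and the Arf and Arl GTPases were mostly higher in seminal vesicle with TMM, but not with spike-in factors. Across 7 lists of 94 related genes, 92 were tested. Of these, 58 were higher in seminal vesicle, 17 were higher in testis and 17 were not called. The counts include Rim, which passed the filter only through testis, and sky and dnd, which passed it only through seminal vesicle. The split was 46 and 25 with library size alone and 26 and 31 with spike-in factors, whose pools differed between the tissues. All genes split into 3272 and 6372 with spike-in factors. Calls toward seminal vesicle there were 45.6% of the calls in the lists, beside 33.9% over all genes. With TMM the 58 and 17 genes were 63.0% and 18.5% of those tested, beside 42.1% and 44.5% of all genes. All 4 genes of Rab prenylation and membrane extraction were higher in seminal vesicle (3 with library size alone and 2 with spike-in factors), with a median log2 fold change of 1.97. Gdi, which extracts Rabs from membranes, stood at 92.6 ± 2.05 CPM in testis and 731 ± 46.6 CPM in seminal vesicle (SD, n = 2), a 7.89-fold difference (adjusted p = 1.42e-04). Rep, the escort that presents new Rabs for prenylation, stood at 2.22 ± 0.577 against 35.7 ± 2.3 CPM, a 16-fold difference (adjusted p = 3.71e-05). The transferase subunits RabGGTa and RabGGTb differed less, by 1.74-fold and 1.94-fold (adjusted p = 0.00283 and 0.00691), and their log2 fold changes were -0.26 and -0.08 with spike-in factors, where the list's median was 0.92.

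The TRAPP complexes, exchange factors of the Golgi, were higher in seminal vesicle in 8 of 9 genes, or 88.9% beside 42.1% of all genes, with a median log2 fold change of 1.27. With spike-in factors 1 was higher in each tissue and the median was 0.20, beside -1.17 over all genes. Their core subunits Trs31 and Bet5 stood at 2.83 ± 0.696 against 14.5 ± 0.282 CPM and at 4.13 ± 0.307 against 13.8 ± 1.54 CPM (adjusted p = 2.04e-04 and 3.55e-04). The more abundant brun, a subunit of the larger complex, was 2.12-fold higher (adjusted p = 0.00212) but was not called with spike-in factors (adjusted p = 0.997), and l(3)76BDm, at 42.4 ± 5.74 against 46.2 ± 4.92 CPM, was not called (adjusted p = 0.556). Other exchange factors were divided. Of 12 tested, 5 were higher in seminal vesicle, 3 were higher in testis and 4 were not called, and the median was 0.14. The 41.7% higher in seminal vesicle was near the 42.1% of all genes. With library size alone the split was 4 and 5. With spike-in factors it was 1 and 7 with a median of -0.92, beside -1.17 over all genes. Gapvd1, which acts on Rab5 in mammals, stood at 11.8 ± 0.729 against 49.3 ± 8.25 CPM (adjusted p = 1.67e-04). The abundant CG18659, a gene of the DENN family, stood at 234 ± 6.68 against 109 ± 25.5 CPM, and pns at 177 ± 13.4 against 52.3 ± 14.9 CPM, both higher in testis (adjusted p = 0.00864 and 0.00147).

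GTPase-activating proteins were divided as well. Of 19 tested, 9 were higher in seminal vesicle, 4 were higher in testis and 6 were not called, with a median log2 fold change of 0.24. The 47.4% higher in seminal vesicle was near the 42.1% of all genes. The split was 7 and 8 with library size alone. With spike-in factors it was 5 and 9 with a median of -0.82, beside -1.17 over all genes. Rab3-GAP was the most abundant gene of this list in testis, at 1158 ± 252 against 128 ± 22 CPM, 9.08-fold higher in testis (adjusted p = 2.34e-04). Among genes of the TBC family, Tbc1d8-9 stood at 18.9 ± 2.08 against 663 ± 172 CPM, 35-fold higher in seminal vesicle (adjusted p = 5.90e-05). CG42795, of the same family, stood at 75.2 ± 11.5 against 2.91 ± 1.8 CPM, 26.7-fold higher in testis (adjusted p = 1.52e-04). TBC1D23 was abundant in both tissues, at 148 ± 10.6 against 166 ± 29.2 CPM, and was not called (adjusted p = 0.557).

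Effectors and tethers were the longest list. Of 29 tested, 19 were higher in seminal vesicle, 7 were higher in testis and 3 were not called, with a median log2 fold change of 1.63. These were 65.5% and 24.1%, beside 42.1% and 44.5% of all genes, and 89.7% were called either way beside 86.6%. With spike-in factors the split was 13 and 8 and the median 0.55, beside -1.17 over all genes. The golgin gene Gmap stood at 23.2 ± 1.38 against 934 ± 89.7 CPM, 40.3-fold higher in seminal vesicle (adjusted p = 3.94e-05). Golgin104 stood at 41.5 ± 1.96 against 8.88 ± 3.21 CPM, 4.72-fold higher in testis (adjusted p = 4.82e-04). Rim, a Rab3-binding protein of the synaptic active zone, stood at 3.47 ± 0.0398 against 0.242 ± 0.112 CPM, 14.4-fold higher in testis (adjusted p = 3.32e-04). Rim passed the filter only through its testis libraries, which fixed its side, so its call supports nothing. Mical, an actin-oxidising enzyme that binds Rabs in mammals, did not pass the test, at 272 ± 43.0 against 258 ± 58.4 CPM (adjusted p = 0.803). Partners of named Rabs were also looked at, and the following 3 were chosen after their values were seen. The Rab11 effector nuf stood at 23.5 ± 4.45 against 302 ± 51.2 CPM (adjusted p = 1.02e-04). The Rab11 effector Rip11 stood at 86.7 ± 4.63 against 135 ± 17.8 CPM (adjusted p = 0.0353), with a log2 fold change of 0.64 that became -0.42 with spike-in factors. The Rab5 effector Rbsn-5 stood at 48.4 ± 3.57 against 24.1 ± 1.86 CPM, higher in testis (adjusted p = 0.00188) and so opposite in direction to Rab5.

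The exocyst, which tethers secretory vesicles at the plasma membrane, was higher in seminal vesicle in 5 of 8 genes, or 62.5% beside 42.1% of all genes, and in testis in 1, with a median log2 fold change of 1.06. With spike-in factors the split was 1 and 3 and the median -0.02, beside -1.17 over all genes. Exo84 stood at 10 ± 0.309 against 43.6 ± 1.13 CPM (adjusted p = 7.89e-05), Exo70 was 1.34-fold higher in testis (adjusted p = 0.0375), and Sec8, at 70.9 ± 4.16 against 57.7 ± 5.94 CPM, was not called (adjusted p = 0.187). The Arf and Arl families of small GTPases were mostly higher in seminal vesicle with TMM, but not with spike-in factors. Of 11 tested Arf and Arl genes, 8 were higher in seminal vesicle and 2 in testis, or 72.7% and 18.2% beside 42.1% and 44.5% of all genes, with a median of 0.93. The split was 5 and 3 with library size alone. With spike-in factors it was 3 and 3 with a median of -0.15, beside -1.17 over all genes. Arf1, which recruits coats at the Golgi, stood at 104 ± 21.2 against 640.3 ± 27.6 CPM (adjusted p = 3.12e-04). Sar1, which recruits the coat of vesicles leaving the endoplasmic reticulum, was 1.88-fold higher (adjusted p = 0.0102) but at -0.16 on the log2 scale with spike-in factors. The gene dnd was 13-fold higher (adjusted p = 7.47e-05), but it passed the filter only through its seminal vesicle libraries, which fixed its side. Arl2 was 2.91-fold higher in testis (adjusted p = 2.54e-04). Whether the size of the change differed between the Rab and the Arf and Arl families was not tested.

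**Figure D5:**
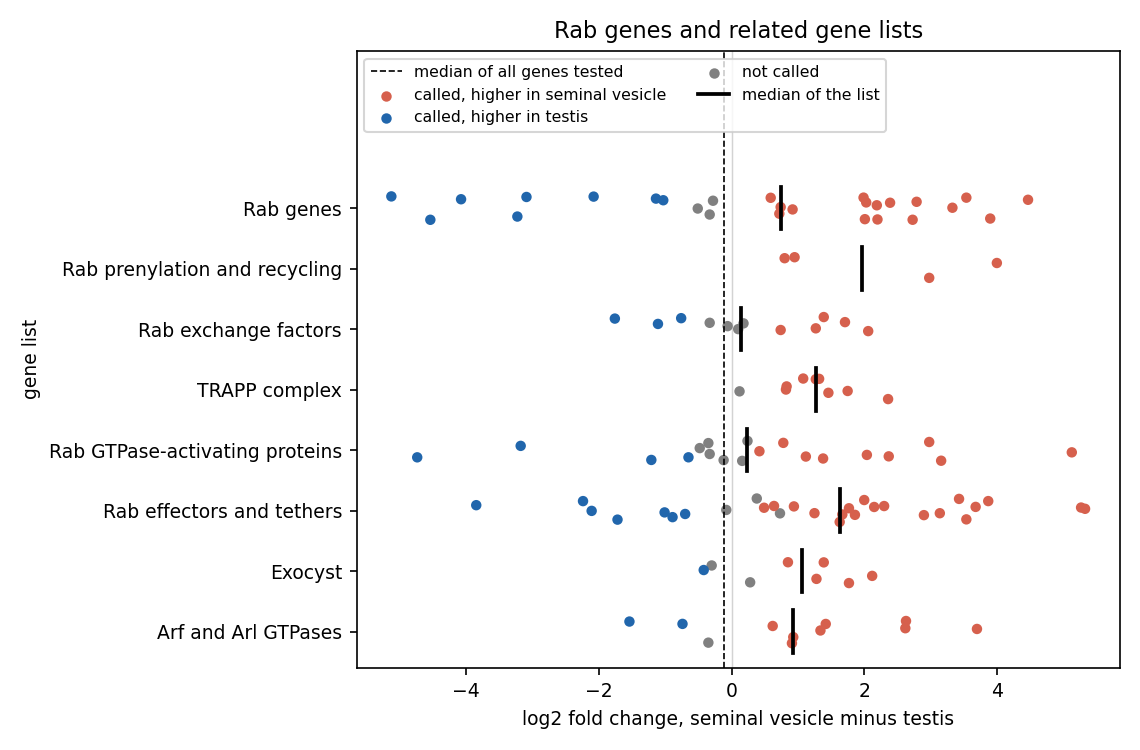
Log2 fold change, seminal vesicle minus testis, of each tested gene of the Rab family and of 7 related gene lists, with one point per gene and a bar at each list's median. Red points are called higher in seminal vesicle, blue higher in testis and grey not called, 3 Rab genes at 0 in seminal vesicle are drawn at their bounds, and the dashed line is the median of all genes tested, -0.11. The medians run from 0.14 for exchange factors to 1.97 for prenylation and recycling, with 0.74 for the Rab genes.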

How the data were processed

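Reads from 2 testis and 2 seminal vesicle libraries were counted per gene by the authors, and the values deposited are raw counts, not normalised. Per the submitters' processing notes the tools were CASAVA 1.8.2, TopHat2 2.1.0 and HTSeq 0.6.1p1, and per the series text reads were mapped to FlyBase 6.06. Settings are not given in the sources used here. Per the labels' protocols the kit was stranded, reads were sequenced from a single end, and spike-in pools differed between the tissues. Each file held 17409 genes, 96 spike-in rows and 5 summary rows. The summary rows, 11.0% to 14.2% of all counts, and the spike-in rows entered neither the library sizes nor the gene tests, and 0 columns were left unmapped. Symbols, positions and merged exon lengths came from Ensembl release 115 of the same assembly, which matched 98.6% of identifiers. Strand-specific counting was checked: 10 counts or more were seen for 77 of 121 genes that lie within exons of the other strand, but for 1 of 103 that lie within exons on their own strand.

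Genes were filtered with filterByExpr (minimum count 10, minimum total 15), TMM-scaled and fitted in edgeR 4.0.16 (R 4.3.3) by its robust quasi-likelihood method, tissue being the only term, at an adjusted p of 0.05. The standard error is the log2 fold change over the square root of F. Folds against 0 counts are bounds against 3 counts over both libraries of a tissue. Floors and intervals hold for counting error alone, because reads lacking molecular identifiers can be copies of one molecule. The p-values measure the spread between these libraries, 2 per tissue. Steps were tested on simulated counts. Alternatives were other scalings (DESeq2 size factors, library size, spike-ins), other filters, DESeq2 1.42.0, limma 3.58.1 voom, a replicate block, a threshold of 0.01, and each library left out.

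Every Rab gene is named, with library values for called and abundant members. In each list the named genes are the 2 that rank first by the average of log2(CPM + 0.5) across all 4 libraries and up to 2 called members farthest from the list median, and nuf, Rip11 and Rbsn-5 were added after their values were seen. Trs85 and TBCK could not be matched by name. The list genes gry and Vps16A and the markers wupA and para had identifiers that were not matched to a row, and are left out. A further gene list is not reported here. The members and lists were chosen with earlier results of these data known. Dissections on 2 days gave the 2 replicates, so equal numbers may share a day. Over genes, the replicate difference in testis correlated at r = 0.09 with that in seminal vesicle, and genes are not independent replicates.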

Additional observations from a re-analysis of the deposited data

How the results depend on the processing

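With spike-in factors, 4 Rab genes changed direction, none of them called there: Rab21 to -0.47, Rab35 to -0.33, Rab8 to -0.15 and RabX1 to -0.35. All genes split there into 3272 higher in seminal vesicle and 6372 in testis, and the pathway lists into 26 and 31. Library size alone ended the calls of Rab8 (0.54, adjusted p = 0.061), Rab21, Rab35 and RabX1 and added Rab14 and RabX4 toward testis, and spike-in factors added Rab14, Rab23 and RabX4. With a filter of 5 CPM in 2 libraries, 4 Rab genes were higher in testis, since Rab27, Rab9Db, Rab9E and Rab9Fa were not tested there. DESeq2 lost Rab21 alone (adjusted p = 0.132). With no filter 17 Rab genes were higher in seminal vesicle, RabX2, which had counts only there, being added. At a threshold of 0.01, 15 were higher in seminal vesicle. Leaving out each library in turn gave 12 to 16 Rab genes higher in seminal vesicle and 8 to 10 higher in testis, and 10 to 23 pathway genes higher in testis. In these fits the tissue left with 1 library is assumed to vary like the other. The replicate block kept 16 and 8 Rab calls, with 4834 and 5122 over all genes, and changed no Rab call. The changes of the other 20 called Rab genes kept their direction in each alternative in which they were tested, but spike-in factors moved 21 of the 24 by over 1.5 times in fold. Low counts limit Rab9D, Rab23, Rab26, Rab27 and RabX2. The causes of these shifts were not tested.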
